A study of Drosophila melanogaster with 12 samples.

Results

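The 2 single knockdowns of the study, SIN3 and SAM-S, were set against each other gene by gene to find transcripts that differ between them and that move in opposite directions from the control. Drosophila S2 cells of wild type genotype, a hemocyte-like (blood cell-like) line established from late embryos, took up double-stranded RNA for 4 days. The RNA targeted GFP as the control, Sin3A, Sam-S, or both genes, and total RNA was then sequenced. There were 3 samples in each of the 4 groups; the labels describe them as combined, and each gene has 1 pooled FPKM per group (fragments scaled to transcript length and to the mapped total). The tables give no value per sample, so no level carries an SD and no difference has a replicate check. The 2 tables were joined by locus and gene, and 7847 of 14542 rows had a completed test in both. Of these, 31 stood at 0 in a knockdown and have no ratio, which left 7816 rows, 309 of them merged from several overlapping genes.

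SIN3 is the scaffold of a histone deacetylase complex that represses transcription, and the complex also carries a histone demethylase. Sam-S encodes S-adenosylmethionine synthetase, which joins methionine to ATP and so makes the methyl donor for histones, RNA and other substrates. The methyl cycle then runs through S-adenosylhomocysteine and homocysteine, which returns to methionine or leaves through cystathionine. The question of the contrast is which genes respond to the loss of the repressor scaffold and not to the loss of the methyl donor's enzyme, or the reverse.

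The targeted genes came first, as a check of the labels. In the order control, samples labelled SIN3 knockdown, SAM-S knockdown and samples labelled double knockdown, which holds for every set of 4 values below, Sam-S (chromosome 2L, 106903 to 114432 on build dm3) stood at 242, 487, 62.0 and 90.7 FPKM. It was thus lowest where it was targeted and highest in the samples labelled SIN3 knockdown. Sin3A (chromosome 2R, 8459617 to 8480397) stood at 68.1, 62.0, 71.2 and 64.4 FPKM. For the first pair of these values q = 0.931 in the authors' deposited table, so the target's mRNA was not called lower where the label names it, and the ratio of the 2 single knockdowns was -0.20 on the log2 scale. These samples are called SIN3-labelled below; their directions rest on that label alone.

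Differences between the knockdowns were spread over few genes. The contrast, the log2 of the SIN3-labelled over the SAM-S knockdown FPKM, had a median of -0.01 and an interquartile range of -0.27 to 0.23. At least 2-fold apart were 149 rows higher in the SIN3-labelled samples, 1.91% of those compared, and 314 rows lower, 4.02%. Higher rows made up 32.2% of these calls, but 44.2% among rows with at least 5 FPKM in the higher knockdown and 46% at a 1.5-fold threshold. In most of them the SIN3-labelled samples were the group that stood farther from the control, in 125 of the 149 and 287 of the 314, against 5471 of all 7816 rows. The median absolute log2 distance from the control was 0.23 in the SIN3-labelled samples and 0.12 after SAM-S knockdown. The share of rows called was higher at low levels: 20.6% of rows under 1 FPKM in the control were 2-fold apart, against 2.17% of those from 20 to 100 FPKM.

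An approximate test of the contrast was built from the authors' deposited statistics, with Benjamini-Hochberg adjustment over 7588 rows. It called 59 rows higher in the SIN3-labelled samples (0.778%) and 74 lower (0.975%) at an adjusted p of 0.05, and 727 rows had an unadjusted p under 0.05. Each standard error behind it was divided by the root of 3, a factor taken from how the deposited statistics relate to their p-values; without it 1 row was called higher and 3 lower, and with control variance counted in neither arm 372 and 313. The adjusted p values below all rest on this scaling, and "called in the contrast" refers to this test alone. It takes the authors' statistics as a measure of the spread between samples, which pooled values cannot show, and in this bulk RNA fewer cells of a type and less RNA per cell cannot be told apart.

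**Figure D1:**
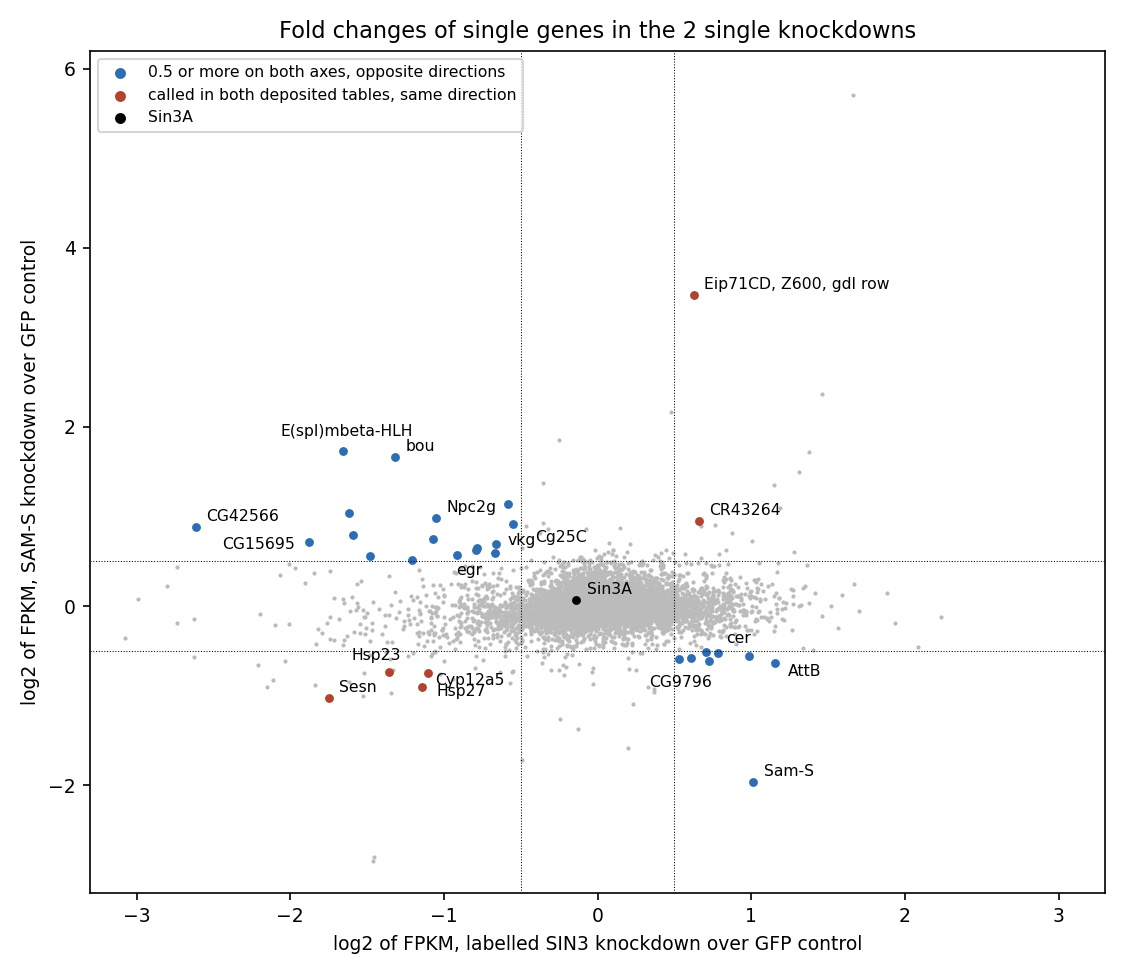
Each grey point is 1 row with at least 5 FPKM in a single knockdown, with the log2 ratio of the SIN3-labelled samples over the control on the x axis and of the SAM-S knockdown over the control on the y axis. Blue points lie at least 0.5 from the control in opposite directions, red points were called in the same direction in both deposited tables, and dotted lines mark 0.5 on each axis. Sam-S stands at 1.01 and -1.96, and Sin3A at -0.14 and 0.06.

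Opposite movements were few. By size, at least 0.5 on the log2 scale from the control in each knockdown, 37 rows were lower in the SIN3-labelled samples and higher after SAM-S knockdown (0.473% of rows), and 16 were the reverse (0.205%). Both arms use the same control libraries. Of these 53 rows, 25 reached 5 FPKM in the higher knockdown (17 lower and 8 higher in the SIN3-labelled samples), 10 were small nucleolar RNA genes, and 9 passed the approximate test. Against the control, the authors' own test called 267 of the rows higher (3.42%) and 345 lower (4.41%) in the SIN3-labelled samples, and 6 higher (0.0768%) and 5 lower (0.064%) after SAM-S knockdown. It called only Sam-S and E(spl)mbeta-HLH in opposite directions at a q of 0.05, and in that test 18 genes had an unadjusted p under 0.05 in both tables with opposite signs.

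E(spl)mbeta-HLH (chromosome 3R, 21830768 to 21831745), a basic helix-loop-helix repressor gene of the Enhancer of split complex that Notch signalling activates, stood at 7.71, 2.45, 25.6 and 10.8 FPKM. The SIN3-labelled samples were the lowest group, the SAM-S knockdown the highest, and the double-labelled samples lay between them and nearer the control. The contrast was -3.39, with an approximate 95% interval of -4.35 to -2.41 and an adjusted p of 1.0e-08 in the approximate test. Against the control, it fell in the SIN3-labelled samples with q = 0.00172 and rose after SAM-S knockdown with q = 0.0306, each in the authors' deposited table. For Sam-S itself the contrast was 2.97, with an interval of 2.47 to 3.48 and an adjusted p of 2.7e-27. That difference joins the depletion of the target in 1 arm to a rise in the other, which had q = 0.00172 in the authors' deposited table.

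Of the other genes opposite by size that passed the approximate test, most were lower in the SIN3-labelled samples. The test concerns the difference between the 2 knockdowns and does not show opposite movement from the control. None of these genes, nor CG9796 and cer below, was called after SAM-S knockdown in the authors' deposited table. There q ran from 0.0568 for CG15695 to 0.99993 for CG32625, vkg and cer. Npc2g was not called in the SIN3-labelled samples either (q = 0.0857 in the authors' deposited table). CG15695 (chromosome 3R, 16667862 to 16670703) stood at 36.8, 10.0, 60.3 and 20.5 FPKM, a contrast of -2.59 with an adjusted p of 2.1e-17. Its distance above the control after SAM-S knockdown had q = 0.0568 in the authors' deposited table. Npc2g, of the Niemann-Pick C2 family of sterol-binding proteins, stood at 11.7, 5.65, 23.1 and 14.5 FPKM, a contrast of -2.03 with an adjusted p of 0.00675. The gene egr encodes Eiger, the tumour necrosis factor of flies, and stood at 39.1, 22.7, 60.1 and 37.0 FPKM (contrast -1.41, adjusted p 0.000108). The double-labelled value of egr was close to the control, between the high SAM-S knockdown and the low SIN3-labelled value. CG32625 (-2.04, adjusted p 0.0377) and the collagen gene vkg (-1.26, adjusted p 0.0116) completed the genes with this direction.

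In the reverse direction, besides Sam-S, CG9796 and cer passed. CG9796 (chromosome 3R, 9223557 to 9227584) stood at 162, 247, 109 and 138 FPKM, a contrast of 1.18 with an adjusted p of 0.000666. The gene cer, which encodes crammer, an inhibitor of cysteine proteases, stood at 64.0, 110, 44.4 and 70.2 FPKM, a contrast of 1.31 with an adjusted p of 0.00992. In each of these genes the SIN3-labelled samples held the highest of the 4 levels and the SAM-S knockdown, or for Sam-S the 2 groups in which it was targeted, the lowest. The thiolase gene yip2 and the phosphate transporter gene Picot had unadjusted p values under 0.05 in both tables, with contrasts of 1.02 (adjusted p 0.00796) and 0.86 (adjusted p 0.0580), but neither was 0.5 or more from the control in both tables.

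Several opposite genes by size did not pass. CG42566, at 7.81, 1.27, 14.4 and 2.82 FPKM, had a contrast of -3.50, but its statistic did not follow its p and it was left out of the approximate test. The same held for bou, which encodes a Ly6 protein of septate junctions, at 2.97, 1.19, 9.40 and 3.57 FPKM (-2.98). The attacin genes AttA (1.54) and AttB (1.79) encode antibacterial peptides and missed the threshold, with adjusted p values of 0.281 and 0.0556. AttB stood at 6.14, 13.6, 3.95 and 10.4 FPKM.

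**Figure D2:**
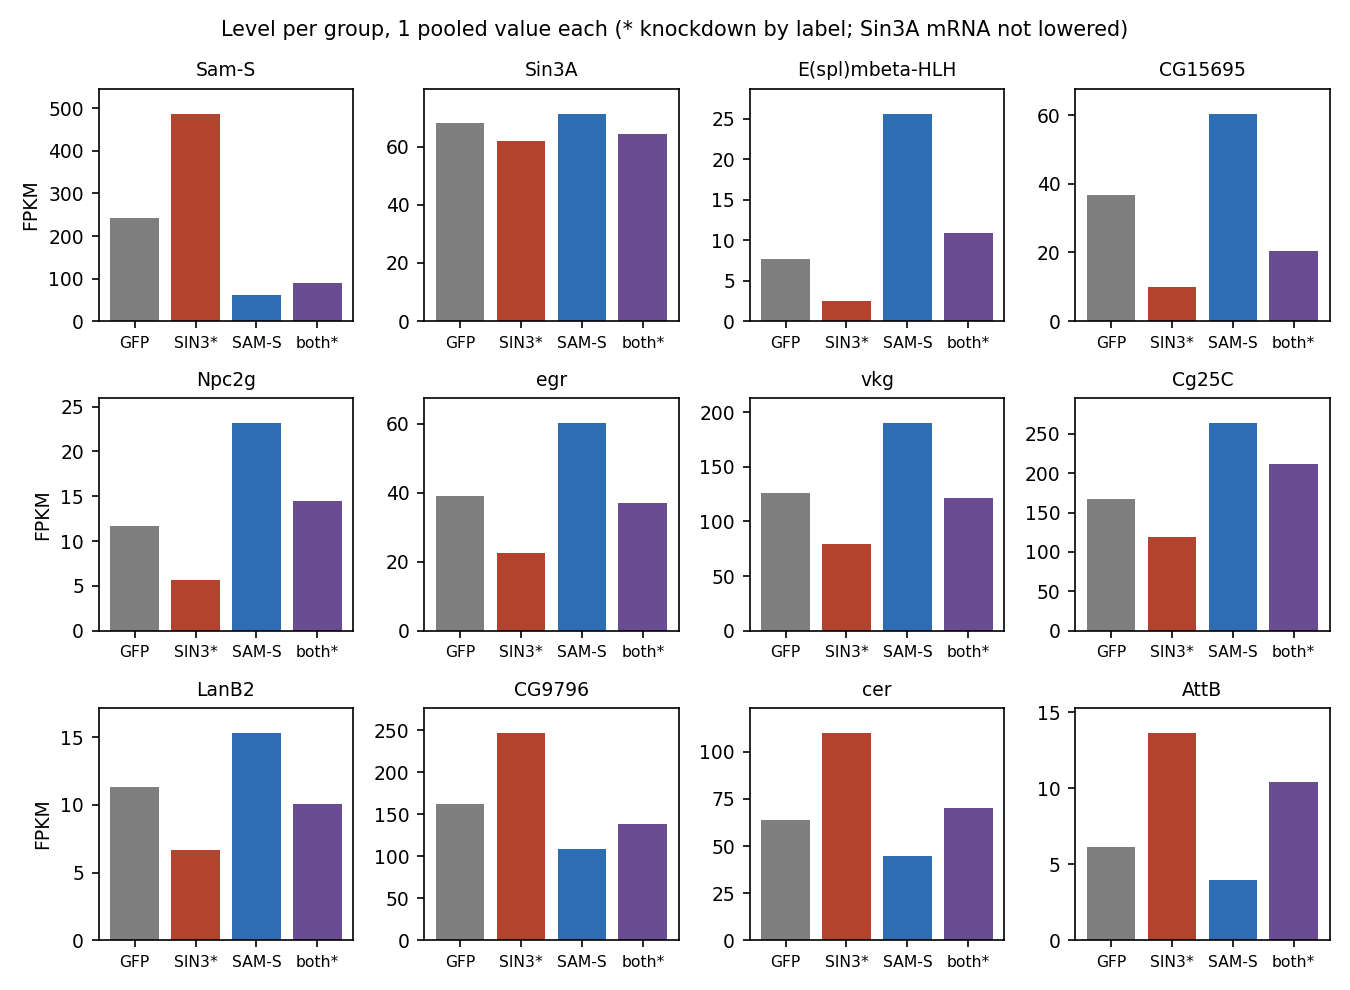
Pooled FPKM (y axis, from 0) of 12 genes in the control, the samples labelled SIN3 knockdown, the SAM-S knockdown and the samples labelled double knockdown, 1 value per bar with no error. In the Sin3A panel the bars run from 62.0 to 71.2 FPKM, while E(spl)mbeta-HLH runs from 2.45 to 25.6 FPKM.

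Single members of the methionine cycle list, which also holds methionine sulfoxide reductase genes, differed between the knockdowns. Of 11 measured members of the methionine cycle list, 2 rows were at least 2-fold higher and 3 lower in the SIN3-labelled samples, and the list median was -0.01, like that of all rows. In the approximate test 2 members were higher and 2 lower, and 133 of all 7588 rows were called. Sam-S, the target itself, is 1 of the 2 higher members in each count. Against the control, the authors' own test called 4 of the 11 members higher and 1 lower in the SIN3-labelled samples. Over all rows these shares were 3.42% and 4.41%. The row that merges Eip71CD with Z600 and gdl, on chromosome 3L from 15502161 to 15506302, stood at 54.97, 84.9, 610 and 843 FPKM; Eip71CD encodes a methionine sulfoxide reductase, and reads of the overlapping genes in this row cannot be told apart. It rose in both knockdowns, and the SAM-S knockdown was 7.19-fold above the SIN3-labelled samples (contrast -2.85, interval -3.38 to -2.31, adjusted p 1.1e-21). Cbs, the cystathionine synthase gene, stood at 30.1, 16.5, 35.1 and 21.3 FPKM (-1.09, adjusted p 0.0168).

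CG10623, a homocysteine methyltransferase gene that returns homocysteine to methionine, moved the other way, at 11.4, 24.4, 10.4 and 19.3 FPKM (1.23, adjusted p 0.0317). Its close neighbour CG10621, of the same enzyme family, had a contrast of -0.53 and did not pass. Ahcy13, which splits S-adenosylhomocysteine, stood at 155, 224, 213 and 341 FPKM, with a contrast of 0.07. In the authors' deposited tables Ahcy13 rose in the SIN3-labelled (q = 0.0295) and double-labelled samples (q = 0.00157) and was not called after SAM-S knockdown. Eip55E, the cystathionine lyase gene, was at -0.01, SelR at -0.28, CG9977 at 0.12 and CG6188 at 0.33, none of them called in the contrast. CG8745, at 1.39 and 3.14 FPKM in the 2 single knockdowns, had a contrast of -1.18 with an adjusted p of 0.331. In the folate cycle, which supplies the methyl group for methionine, only Ts of 6 members was called in the contrast, the thymidylate synthase gene at 80.6, 36.4, 71.7 and 37.6 FPKM (-0.98, adjusted p 0.0314).

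Basement membrane and matrix genes were often lower in the SIN3-labelled samples. Of 14 measured members, 6 were at least 2-fold lower and none 2-fold higher, 7 were lower in the approximate test (4.02% and 0.975% of all rows were lower by these rules), and the median contrast was -0.80 against -0.01 over all rows. Their medians were -0.42 against the control in the SIN3-labelled samples and 0.20 after SAM-S knockdown. The collagen IV chains vkg and Cg25C, which lie head to head on chromosome 2L, stood at 126, 79.2, 190 and 121 FPKM and at 168, 120, 263 and 211 FPKM. Both were lower than the control in the SIN3-labelled samples and higher after SAM-S knockdown, and Cg25C had a contrast of -1.14 with an adjusted p of 0.0308. Of the 4 single comparisons with the control behind them, only that of vkg in the SIN3-labelled samples was called, with q = 0.0246 in the authors' deposited table. The laminin gamma chain gene LanB2 stood at 11.4, 6.69, 15.3 and 10.1 FPKM (-1.20, adjusted p 0.0129).

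BM-40-SPARC, a collagen-binding matrix protein gene, stood at 888, 474, 1050 and 608 FPKM (-1.15, adjusted p 0.00355). Pxn, which encodes the peroxidase that crosslinks collagen IV, stood at 152, 51.2, 147 and 57.8 FPKM (-1.53, adjusted p 0.000666), so that its difference lay in the SIN3-labelled arm. Glt (-1.20) and the metalloproteinase gene Mmp2 (-0.97) also fell in the SIN3-labelled samples, each with q = 0.00172 in the authors' deposited table. The other laminin chains were not called in the contrast, LanB1 at -0.48 and LanA at -0.05. The 2 enzymes that hydroxylate collagen stood apart from the chains, with Plod at 0.19 and PH4alphaEFB at 0.66 (adjusted p 0.206). Plod stood at 61.1, 88.6, 77.8 and 85.8 FPKM and rose in the SIN3-labelled samples (q = 0.0396 in the authors' deposited table). It was the 1 member of the list called higher there, against 6 called lower.

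**Figure D3:**
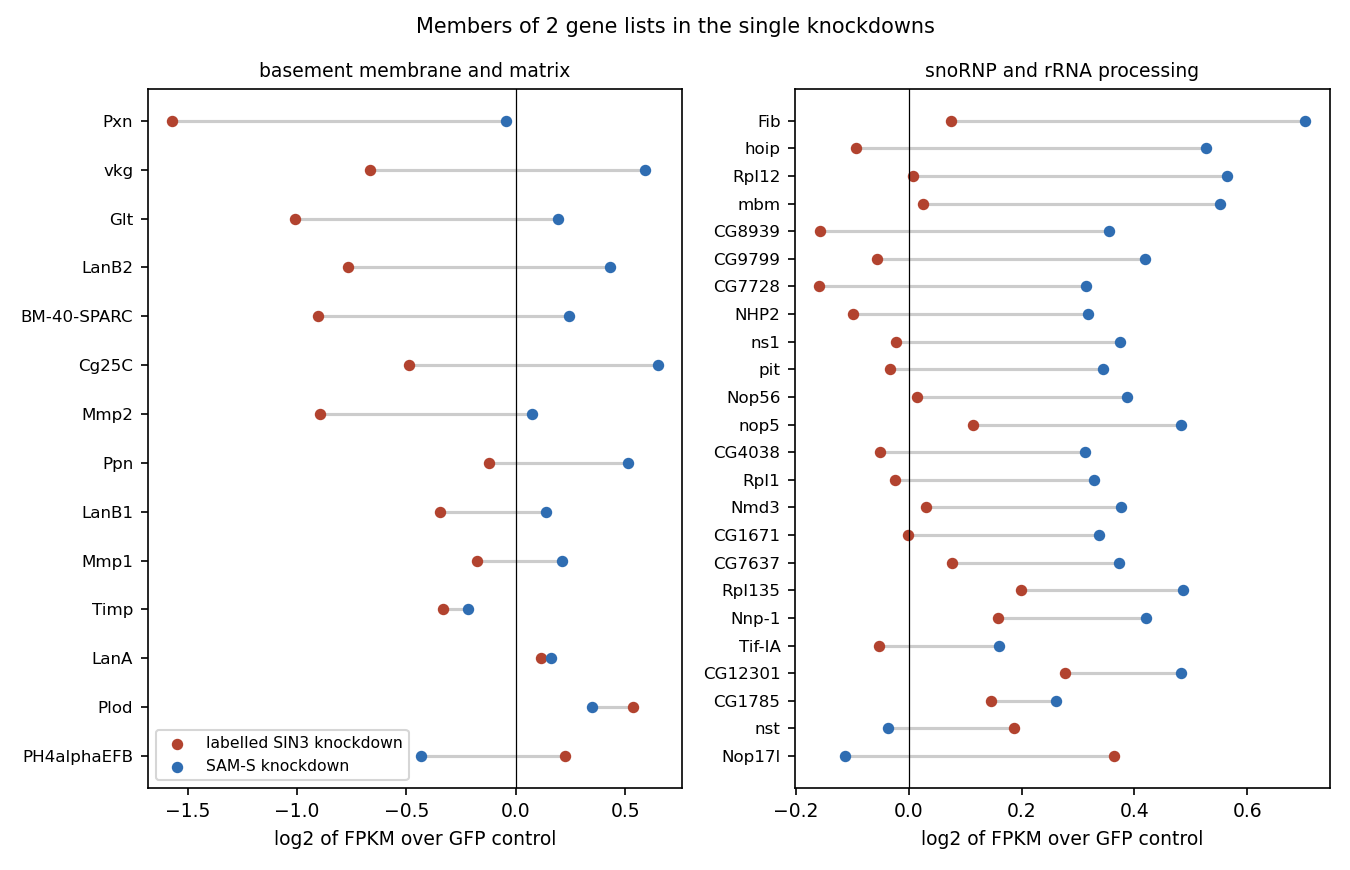
Log2 ratio to the control (x axis) of each measured member of the basement membrane and matrix list and of the snoRNP and rRNA processing list, with red points for the samples labelled SIN3 knockdown and blue points for the SAM-S knockdown. In vkg the red point is at -0.67 and the blue at 0.59, and in Fib at 0.07 and 0.70.

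Hemocyte markers overlapped this list through Pxn, vkg and Cg25C. Of 17 measured, 6 were at least 2-fold lower and 5 were lower in the approximate test, and none was higher by either rule. The median was -0.57, and over all rows the lower shares were 4.02% and 0.975%. The 2 positive contrasts were those of crq (0.55) and Fer2LCH (0.38), neither called in the contrast. The adjacent scavenger receptor genes Sr-CI (-1.12, adjusted p 0.00237) and Sr-CIII (-1.39, adjusted p 0.0421) were called in the contrast, and Sr-CI stood at 127, 58.5, 127 and 53.3 FPKM. Nplp2, by far the most abundant marker at 25039 FPKM in the control, stood at 10721 in the SIN3-labelled samples and 21859 after SAM-S knockdown (-1.03, adjusted p 0.160). The summed level of the list was 27110, 12120 and 24020 FPKM in the control, SIN3-labelled and SAM-S knockdown groups, and a defining marker, Hml, was under 1 FPKM in all of them. Markers of other tissues were scarce: 1 of 5 each was measured for neurons (elav, 3.23 FPKM in the control), muscle (Mlc2, 0.938 FPKM) and fat body and gut (Rfabg, 2.14 FPKM). Of 9 germline genes 7 were measured, with a median contrast of -0.44 and no call in the contrast. The part of these markers in the matrix result was not tested.

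The Notch pathway list had 15 measured members, 5 of them at least 2-fold lower in the SIN3-labelled samples (4.02% of all rows) and none higher, with a median of -0.31. The receptor gene N (chromosome X, 3028905 to 3066295) stood at 7.30, 2.98, 6.98 and 3.37 FPKM (-1.23, adjusted p 0.00537), and the ligand gene Ser at 5.14, 2.06, 4.68 and 2.45 FPKM (-1.18, adjusted p 0.0497). Both were lower in the SIN3-labelled and double-labelled samples and close to the control after SAM-S knockdown, unlike E(spl)mbeta-HLH. The other measured Enhancer of split genes were E(spl)m3-HLH (1.29, 0.236, 1.14 and 0.506 FPKM) and E(spl)malpha-BFM (0.823, 0.0810, 0.461 and 0.269 FPKM). Unlike E(spl)mbeta-HLH, neither was above the control after SAM-S knockdown (log2 -0.19 and -0.84). E(spl)m3-HLH was called lower in the SIN3-labelled samples (q = 0.0226 in the authors' deposited table). Their contrasts of -2.27 and -2.51 shrank to -0.79 and -0.43, under 2-fold, with 1 added to each FPKM. The transcription factor gene Su(H) was at -0.22, the coactivator gene mam at -0.23 and the gamma-secretase genes Psn and nct at 0.14 and 0.18, with none called in the contrast.

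In the list of snoRNP and rRNA processing genes, which mature ribosomal RNA, no member of 24 was 2-fold apart or called in the contrast, but 22 contrasts were negative, against 4018 of all 7816 rows, and the median was -0.36. Their medians against the control were 0.01 in the SIN3-labelled samples, 0.37 after SAM-S knockdown and 0.36 in the double-labelled samples. Fib encodes fibrillarin, the enzyme that methylates rRNA with S-adenosylmethionine, and stood at 83.9, 88.5, 137 and 159 FPKM. In the authors' deposited table it rose after SAM-S knockdown at q = 0.0306, while its contrast of -0.63 had an adjusted p of 0.319. The box C/D protein gene hoip stood at 257, 240, 370 and 445 FPKM (-0.62, adjusted p 0.318). Cytoplasmic ribosomal protein genes had 71 of 79 negative contrasts with a median of -0.21, whereas 48 of 73 mitochondrial ribosomal protein genes were positive, with a median of 0.14, and neither list had a member called in the contrast. Only RpS19b of these lists was 2-fold apart, at 3.80, 2.03 and 4.54 FPKM in the control and the single knockdowns. In the authors' deposited table mRpL19 (q = 0.00550) and mRpL40 (q = 0.00172) rose in the SIN3-labelled samples.

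Other genes that the authors called after SAM-S knockdown were split by the contrast. The amino acid transporter gene path stood at 45.8, 35.4, 80.6 and 46.6 FPKM, a contrast of -1.19 with an adjusted p of 0.00382, and its double-labelled value was that of the control. The gene r, which starts pyrimidine synthesis, stood at 28.6, 30.6, 44.1 and 38.0 FPKM (-0.53, adjusted p 0.427). Of the 8 rows that the authors called in both tables, 6 moved the same way from the control. Among them Sesn, the sestrin gene, stood at 26.2, 7.82, 12.9 and 4.65 FPKM, a contrast of -0.72 with an interval of -1.31 to -0.13 and an adjusted p of 0.306. Hsp23 (-0.62), Hsp27 (-0.35), CR43264 (-0.29) and Cyp12a5 (-0.24) likewise did not pass, which does not show that the knockdowns act alike on them.

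There were 18 measured heat shock rows, mostly genes of chaperones that bind unfolded proteins. Of these, 9 were called lower in the SIN3-labelled samples by the authors' own test, against 4.41% of all rows. Of the 9, Hsp23 and Hsp27 were also called lower after SAM-S knockdown, against 0.064% of all rows. Of the 18, 15 contrasts were negative, against 4018 of all 7816 rows, and the median was -0.46. List medians against the control were -0.98 in the SIN3-labelled samples, -0.37 after SAM-S knockdown and -2.22 in the double-labelled samples. Only the Hsp70 copies Hsp70Ba (-1.33, adjusted p 0.0317) and Hsp70Bbb (-1.56, adjusted p 0.0497) were called in the contrast, and reads of such near-identical copies may be split between them. Hsp26 stood at 671, 316, 457 and 106 FPKM (-0.53, adjusted p 0.459). Hsf, the gene of the heat shock transcription factor, was at 0.32 and not called in the contrast.

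Contrasts of cell division genes were mostly negative. For mitosis 29 of 32 were so, with a median of -0.39, and for DNA replication 30 of 37, with a median of -0.27. Over all rows 4018 of 7816 were negative. None of these genes was called in the contrast. Against the control, the authors' own test called 9 of 32 mitosis genes lower in the SIN3-labelled samples. It called 3 of 37 DNA replication genes lower there, against 4.41% of all rows. Among the called genes were feo (q = 0.0129) and Incenp (q = 0.00311), each in the authors' deposited table. In mitosis, feo stood at 23.9, 14.5, 25.5 and 17.5 FPKM (-0.81, adjusted p 0.141) and Incenp, of the chromosomal passenger complex, at 49.0, 29.9, 49.2 and 31.4 FPKM (-0.72, adjusted p 0.140). Some metabolic genes were higher in the SIN3-labelled samples, in lists with medians of 0.12 (glycolysis), 0.09 (TCA cycle) and -0.04 (nucleotide synthesis). In glycolysis 11 of 13 contrasts were positive, against 3798 of all 7816 rows. Against the control, the authors' own test called 3 of 13 glycolysis and 2 of 21 TCA cycle genes higher there, and none lower. It called 3 of 18 nucleotide synthesis rows higher and 1 lower, against 3.42% and 4.41% of all rows. Aprt, which salvages adenine, stood at 25.5, 63.9, 25.9 and 50.3 FPKM (1.30, adjusted p 0.0168). Phosphoglucomutase Pgm stood at 58.7, 103, 48.2 and 64.5 FPKM (1.09, adjusted p 0.0236) and isocitrate dehydrogenase Idh at 214, 374, 192 and 264 FPKM (0.96, adjusted p 0.0102). Mcr, of the thioester protein family of innate immunity, stood at 57.3, 115, 47.8 and 71.0 FPKM (1.26, adjusted p 0.000108). Of these 4 genes each was highest in the SIN3-labelled samples, with the SAM-S knockdown near or below the control.

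Antimicrobial peptide genes had the highest list median, 0.72, with 4 of 12 at least 2-fold higher (1.91% of all rows) and none called in the contrast. AttB alone of them rose in the SIN3-labelled samples in the authors' deposited table (q = 0.0329). With 1 added to each FPKM the median was 0.39, and CecC (-0.97) and TotA (-0.69) pointed the other way. Genes of the SIN3 complex had a median of -0.07 over 15 and those of histone methylation 0.09 over 28. Neither list had a call in the contrast or in the authors' deposited tables of the 2 single knockdowns. Sap130 of the SIN3 complex, at 18.6, 26.2, 18.9 and 29.7 FPKM, was called higher in the double-labelled samples (q = 0.0276 in the authors' deposited table). The deacetylase gene Rpd3 stood at 103, 73.2, 104 and 74.3 FPKM (-0.50, adjusted p 0.477) and ash2 at 0.68 (adjusted p 0.284). Tetraspanins had a median of -0.09 and 9 of 21 positive contrasts, but 5 of 21 were at least 2-fold lower (4.02% of all rows), with Tsp42Eg at 25.5, 4.11, 17.2 and 4.50 FPKM (-2.06, adjusted p 0.000123) and Tsp96F at -1.41 (adjusted p 0.0111). The integrin gene betaInt-nu (-1.48, adjusted p 0.00951) and the ethanolamine kinase gene eas (-1.30, adjusted p 0.00355) were the only members of the adhesion and lipid synthesis lists called in the contrast. In the authors' deposited table scb, bgm and CG3961 of these lists also fell in the SIN3-labelled samples, and stck rose.

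**Figure D4:**
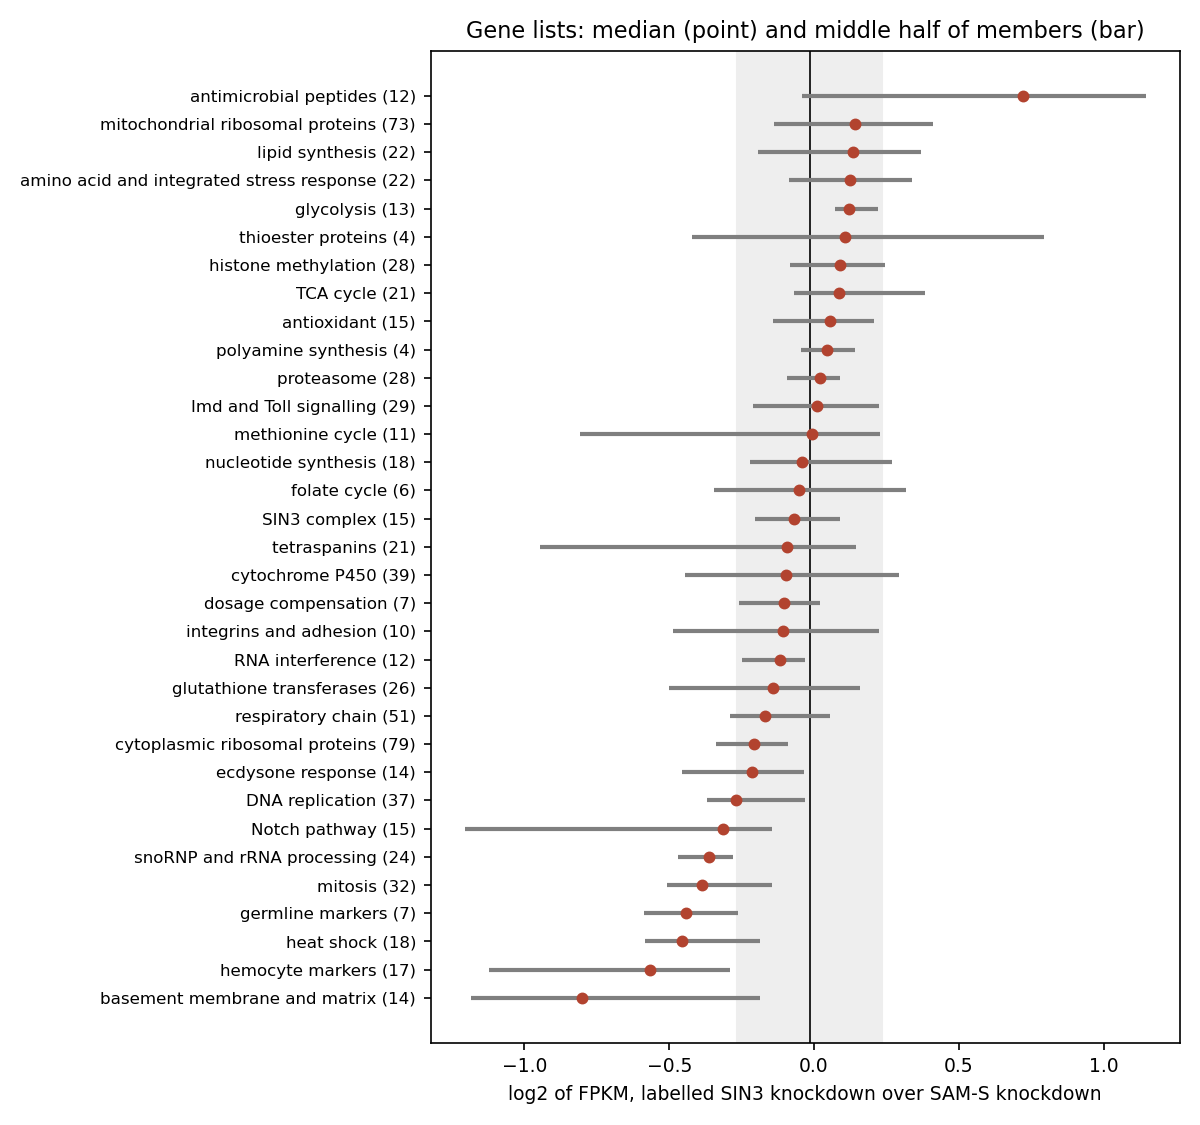
Median contrast (red point) and interquartile range (grey bar) of the gene lists with at least 4 measured members, on a log2 axis of the samples labelled SIN3 knockdown over the SAM-S knockdown, with the number of members in brackets. The shaded band is the interquartile range over all rows, -0.27 to 0.23, and the line their median of -0.01. The basement membrane and matrix list has the lowest median and the antimicrobial peptides the highest.

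Among all genes with at least 5 FPKM in the higher and 0.5 in the lower knockdown, the widest contrasts were mixed with rows of uncertain value. CG4250 (chromosome 2R, 18551193 to 18551979), beside CG42566, stood at 23.6, 3.55, 31.9 and 5.90 FPKM (-3.17, adjusted p 1.7e-08), CG33307 at 104, 14.9, 121 and 24.4 FPKM (-3.03, not in the approximate test) and CG13386 at 8.63, 1.03, 6.76 and 2.85 FPKM (-2.72, adjusted p 0.00124). Highest after Sam-S were CG30010 (2.54), the esterase gene alpha-Est3 (2.36), CG7231 (2.12), CG7328 (1.89), CG9521 (1.81) and CG4942 (1.79). Of these, alpha-Est3, at 4.16, 19.6, 3.83 and 11.6 FPKM, had an adjusted p of 0.000108 and CG4942 of 0.0322. The other genes in that group were not in the approximate test. Small nucleolar RNA genes held 5 of the 20 widest rows, among them the merged row of snoRNA:M and snoRNA:Me28S-G980 at 43.6, 138, 2275 and 52.9 FPKM (-4.04), and of 73 snoRNA rows the 26 that entered the approximate test did not pass it.

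The double-labelled samples carried both treatments and took no part in the contrast. Their level lay between the 2 single knockdowns in 132 of the 149 rows that were higher in the SIN3-labelled samples and in 235 of the 314 that were lower, against 3629 of 7815 rows in all. It was nearer to the SIN3-labelled than to the SAM-S level in 114 of the 149 and 243 of the 314, against 4680 of 7815. Rows chosen for a wide gap leave more room between, so these counts describe the groups only.

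The contrast also differed between chromosomes. Of 1305 rows on the X, 70% were negative and the median was -0.16, against 47.1% and 0.03 for 6393 rows on the major autosomal arms, whose medians ran from 0.01 to 0.05. At least 2-fold lower were 65 X rows and 2-fold higher 8, or 4.98% and 0.613%, while the autosomal arms had 3.74% and 2.21%. The X median against the control was -0.16 in the SIN3-labelled samples, -0.02 after SAM-S knockdown and -0.12 in the double-labelled samples. Among rows with at least 20 FPKM in the control it was -0.12 in the contrast, against 0.03 on the autosomal arms. Chromosome 4 (73 rows, median -0.22) and the heterochromatin scaffolds (45 rows, median -0.39, with 40 negative) had lower medians; among rows with at least 20 FPKM these were -0.10 and -0.31, the first no lower than that of the X. In S2 cells, a male line, the output of the X is raised by the dosage compensation complex. Its genes in the joined rows ran from -0.61 for the noncoding RNA roX2 (82.1, 47.8, 73.0 and 48.8 FPKM, adjusted p 0.593) to 0.13 for mle, with no call in the contrast, although roX2 fell in the SIN3-labelled samples in the authors' deposited table (q = 0.0417). The core subunit gene msl-2, merged with mir-4971 in 1 of the tables and so left out of the join, stood at 25.3, 32.3 and 21.98 FPKM in the control and the single knockdowns.

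**Figure D5:**
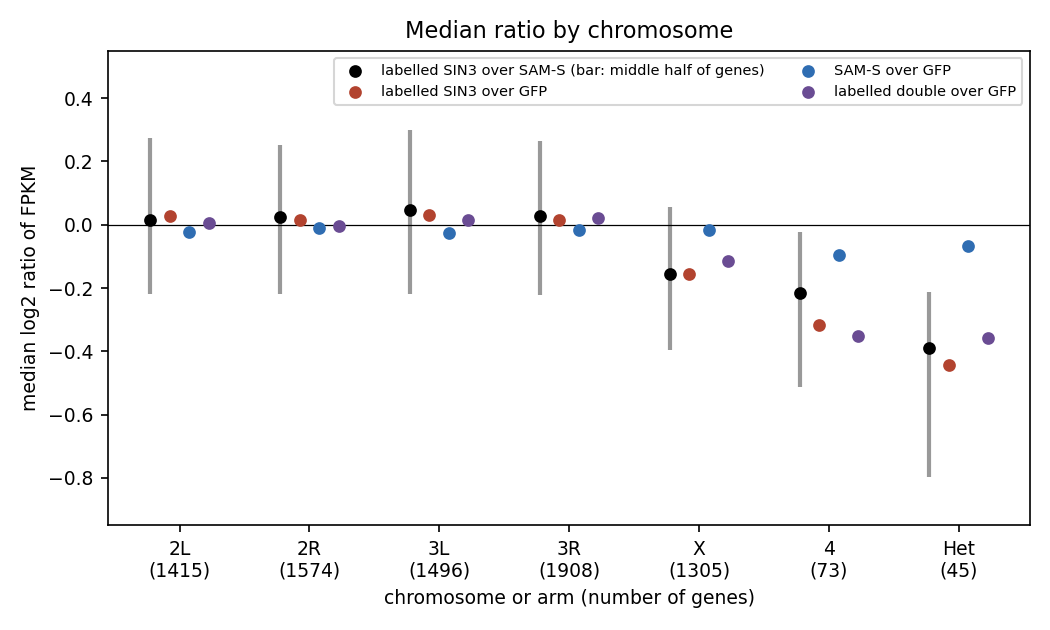
Median log2 ratio (y axis) by chromosome or arm (x axis, number of rows in brackets, Het for the heterochromatin scaffolds), in black for the samples labelled SIN3 knockdown over the SAM-S knockdown with the interquartile range as a bar, and in colour for each group over the control. The black point is at -0.16 on the X and between 0.01 and 0.05 on the autosomal arms.

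A few neighbouring genes were 2-fold apart together. Of 5145 pairs of adjacent rows within 10 kb, 523 had at least 1 row 2-fold apart, and in 27 (0.525% of all pairs) both were at least 2-fold apart in the same direction, 23 lower and 4 higher in the SIN3-labelled samples; in 2 pairs they were so in opposite directions. Of the 27, 10 had both genes at 5 FPKM or more. The 27 include the collagen pair vkg and Cg25C, 1417 bases apart, Sr-CIII and Sr-CI, AttA and AttB, and CG42566 and CG4250. CG16985 and CG16986 on chromosome 3L, 88 bases apart, stood at 75.7 and 59.2 FPKM in the SIN3-labelled samples and 30.3 and 25.1 FPKM after SAM-S knockdown. The engulfment receptor family genes nimB2, nimB3 and nimB4 lie in 1 run on chromosome 2L, with contrasts of -1.13, -1.16 and -1.31. Without a known strand setting, reads of overlapping ends of adjacent genes cannot be told apart.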

How the data were processed

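RNA-seq of S2 cells was compared in the 2 single knockdowns. Per the submitters' processing notes, reads were converted with bcl2fastq and groups compared with Cuffdiff on build dm3; for versions, aligner, annotation and strand setting, the sources used here give nothing. The authors deposited, per the file headers, FPKM per gene and group, a test statistic (a score), and p-values and q-values. Per the labels, replicates were combined, and whether the p-values reflect variation among the samples is unknown. Depth is unknown. The authors' GFP FPKM in the SIN3 table was brought to the SAM-S table by the median ratio of 1.005 (21 rows were off by over 1%), and the double table by its own. Date-like cells that had replaced 5 symbols in the SAM-S and double tables were restored. Starts in the files count from 0 and had 1 added.

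The contrast is the log2 ratio without a pseudocount, and rows with a ratio of 2 are counted as 2-fold apart. The approximate test divides the difference of the log2 fold changes by their joint standard error, each being the fold change over the deposited statistic, divided by the root of 3. It used rows whose rescaled statistic followed p within 0.25 (median standard error 0.318), and counts control variance in both arms. Rows at the lowest deposited p instead needed only a large enough statistic, so that p cannot check their smaller adjusted p values. A run on simulated data used the same standard errors and so could not check the root of 3. Python 3.11.15, pandas 2.3.3 and scipy 1.17.1 were used.

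Members, lists and tests were chosen with earlier results of these data known. After values were seen, chaperonin, cyclophilin and other misnamed matches were taken out of the lipid, cytochrome P450 and proteasome lists. Named were the targets, genes the authors called opposite, the 10 highest and 10 lowest contrasts with at least 5 FPKM in the higher and 0.5 in the lower knockdown, 8 opposite genes per direction, 3 members per list and direction, and every Enhancer of split and methionine cycle gene; further list members, neighbouring genes, yip2 and Picot were named after their values were seen. No sequence is printed.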

Additional observations from a re-analysis of the deposited data

How the results depend on the processing

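Counts depended on thresholds more than on scaling. The 149 higher and 314 lower rows became 96 and 141 with 1 added to each FPKM, 509 and 913 over every joined row above 0, 662 and 777 at 1.5-fold, and the lower rows 145 with at least 5 FPKM. Scaling, centring, the fold changes against each table's own control, a minimum of 1 FPKM and a looser join gave 146 to 158 and 278 to 319. Opposite rows, 37 and 16, became 118 and 83 at a log2 distance of 0.3, 3 and 3 at 1, 17 and 8 with at least 5 FPKM, and 13 and 7 with 1 added; the authors' opposite calls went from 2 to 18 at p under 0.05. The approximate test, 59 and 74, gave 372 and 313 with control variance counted in neither arm, 22 and 36 at an adjusted p of 0.01, and 1 and 3 without the root of 3. Its calls thus rest on how the deposited statistic is scaled. Of named genes and lists, all but 8 of 256 stayed on their side of 2-fold with 1 added, and all but 1 (Hen1) when centred; no 2-fold row changed sign, and of the named genes only Eip55E, near 0, went from -0.01 to 0.01 when centred, taking the methionine cycle median with it. No paired analysis was possible because the tables hold 1 combined value per group and the columns carry no replicate numbers; for the same reason no replicate could be left out.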
